A study of Mus musculus with 16 samples.

Results

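The metallothioneins Mt1, Mt2 and Mt3 were followed in mRNA collected with the RiboTag method from substantia nigra pars compacta (SNc) tissue of 16 mice. The members are a gene family given by name and were found by their Ensembl identifiers, which gave 3 of the 25006 genes listed, and all 3 had enough counts to be tested. The family was chosen by the genotype difference of Mt3 in these same libraries, so the difference between genotypes is described here and not tested. The study asked what loss of the mitochondrial calcium uniporter (MCU), the channel through which calcium enters the mitochondrial matrix, does to dopaminergic neurons. Control mice carried DAT-Cre+/-, and in MCU-KO mice this was combined with MCU fl/fl. Each genotype had 8 mice, with 1 library per mouse. All mice were 45 days old and carried 1 copy of a Cre recombinase knocked into the dopamine transporter gene. All had received, in the SNc of both hemispheres 30 days earlier, an AAV9 vector in which Cre switches on the epitope-tagged ribosomal protein Rpl22l1-Myc-DDK. The controls came from crosses of DAT-Cre mice with C57/BL6 mice and the MCU-KO mice from crosses with MCU fl/fl mice, so genotype and breeding line cannot be told apart.

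Metallothioneins are small cytosolic proteins in which the thiol groups of many cysteines hold zinc and copper ions, and they release zinc when these thiols are oxidized. Mt1 and Mt2 are made in most tissues, in the brain mainly by astrocytes, and their transcription is raised by metals through the zinc-sensing factor MTF1 and by glucocorticoids. Mt3 is found mainly in the central nervous system, in neurons and in astrocytes, was first described as an inhibitor of neurite growth, and responds little to metals. The 4 mouse genes lie side by side in the same orientation.

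On GRCm38 all 4 genes lie on the plus strand of chromosome 8. Their order is Mt4 (chr8:94137197-94139031), Mt3 (chr8:94152607-94154146), Mt2 (chr8:94172664-94173568) and Mt1 (chr8:94179082-94180327). Mt4, which is made in stratified epithelia, had 0 counts over all 16 mice, where a floor of 3 counts would be 0.136 to 0.212 CPM (counts scaled to a common library size). Each member has an annotated transcript of 3 exons with a middle exon of 66 bases, and these transcripts measure 549 bases for Mt1, 511 for Mt2 and 536 for Mt3. The coding sequences of these transcripts are printed here from GENCODE M21, 5′ to 3′, to show how alike the members are, with the cysteine codons in capitals.
Mt1: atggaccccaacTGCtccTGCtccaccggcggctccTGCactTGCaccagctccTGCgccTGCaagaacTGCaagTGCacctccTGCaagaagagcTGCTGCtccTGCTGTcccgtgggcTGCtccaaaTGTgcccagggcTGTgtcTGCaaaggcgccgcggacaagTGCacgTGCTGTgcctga
Mt2: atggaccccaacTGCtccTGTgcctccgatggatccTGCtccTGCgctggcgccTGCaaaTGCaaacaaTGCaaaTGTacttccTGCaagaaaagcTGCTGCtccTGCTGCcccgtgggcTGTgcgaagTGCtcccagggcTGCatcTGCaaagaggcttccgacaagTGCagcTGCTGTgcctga
Mt3: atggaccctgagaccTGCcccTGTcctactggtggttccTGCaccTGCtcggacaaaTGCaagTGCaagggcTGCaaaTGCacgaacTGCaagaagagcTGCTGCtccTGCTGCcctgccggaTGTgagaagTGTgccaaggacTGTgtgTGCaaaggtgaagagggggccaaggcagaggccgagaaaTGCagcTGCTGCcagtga
Each of the 3 sequences holds 20 cysteine codons, out of 61 codons in Mt1 and in Mt2 and 68 in Mt3. Mt1 and Mt2 were identical at 79.6% of the aligned bases with no gap. Mt3 was identical to Mt1 at 73.7% and to Mt2 at 75.3%, with 21 gap bases in either alignment. In spite of this likeness, 0% of all 50-base stretches of the Mt1 or Mt3 transcripts occurred in a transcript of any other gene on either strand. For Mt2 the share was 45.8%, all of it with Gm45774, an antisense gene that overlaps Mt2 and is not among the genes counted. Whether the counting used strand is not given in the sources used here, so reads of Mt2 and of this antisense gene cannot be told apart.

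The sequences just upstream of the genes are shown because Mt3 parted from its neighbors. They are the 250 bases before the annotated RefSeq start (GRCm38.p6, plus strand), at chr8:94178839-94179088 for Mt1, chr8:94172368-94172617 for Mt2 and chr8:94152357-94152606 for Mt3. Capitals mark every match to TGCACNC or TGCGCNC, the core letters of the metal response element to which MTF1 binds, searched on both strands.
Mt1 upstream: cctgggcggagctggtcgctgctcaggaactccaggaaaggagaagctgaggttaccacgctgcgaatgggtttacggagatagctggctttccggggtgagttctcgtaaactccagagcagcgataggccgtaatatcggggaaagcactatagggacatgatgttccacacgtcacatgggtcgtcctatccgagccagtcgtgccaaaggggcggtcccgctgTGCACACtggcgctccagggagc
Mt2 upstream: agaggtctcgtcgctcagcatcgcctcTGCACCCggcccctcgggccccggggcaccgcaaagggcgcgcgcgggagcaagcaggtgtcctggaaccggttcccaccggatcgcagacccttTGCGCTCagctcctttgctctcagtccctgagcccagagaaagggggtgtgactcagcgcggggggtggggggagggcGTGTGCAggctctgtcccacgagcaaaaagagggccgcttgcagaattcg
Mt3 upstream: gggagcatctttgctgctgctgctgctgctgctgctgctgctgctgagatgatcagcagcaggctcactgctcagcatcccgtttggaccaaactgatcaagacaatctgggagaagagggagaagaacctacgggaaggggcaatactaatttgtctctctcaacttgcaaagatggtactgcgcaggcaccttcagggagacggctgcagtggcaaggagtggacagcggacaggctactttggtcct
In these 250 bases Mt2 held 3 matches, Mt1 held 1 and Mt3 held 0. With the 50 bases after the start included, there were 4 matches in Mt2, 3 in Mt1 and 1 in Mt3. Of 32851 mouse promoters of the same length, 25.7% held at least 1 match, 1.97% at least 3 and 0.517% at least 4. Such a match is a description of the letters and not a measured binding site. The counts also depend on where the start is annotated. In Mt1, matches lay at bases 3 to 9 and 21 to 27 after it, and sequence farther downstream was not searched. The order of the 3 genes therefore holds for these windows only.

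Library totals ranged from 18999107 to 22016362 counts in controls and from 14129527 to 20582204 in MCU-KO. One library, that of MCU-KO mouse 8, stood apart with the lowest total. Markers of dopaminergic neurons were high in every mouse, with Th, the first enzyme of dopamine synthesis, between 80886 and 143959 normalized counts and Slc6a3, the dopamine transporter, between 34306 and 85110. The mean log2 CPM of 12 such markers was 9.52 ± 0.11 (SD, n = 8) in controls and 9.48 ± 0.19 (SD, n = 8) in MCU-KO. The lowest of all 16 mice was MCU-KO mouse 6 at 9.07, with the next at 9.36, and this mouse also had the highest summed level of GABAergic (333 CPM) and microglial markers (343 CPM). Glial mRNA was present as well, and 0 of 16 astrocyte markers were at 0 in all mice of a genotype. The summed level of the astrocyte markers ran from 1256 to 2220 CPM in controls and from 1368 to 2488 CPM in MCU-KO. Mcu, the deleted gene, had 454 ± 274 normalized counts (SD, n = 8, 120.3 to 828.2) in controls and 199.9 ± 139 (SD, n = 8, 5.82 to 410.1) in MCU-KO. Its groups overlapped and it did not pass the threshold (log2 fold change −1.19, 95% interval −2.41 to 0.04, edgeR's quasi-likelihood test, adjusted p = 1.00). The counts are of the whole gene and do not separate deleted exons from the rest. The study itself verified the deletion by quantitative PCR of Mcu in RiboTag mRNA and by reduced calcium uptake into mitochondria.

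Mt3 fell to 0.274 of its control level in MCU-KO, while Mt1 and Mt2 stayed near theirs. Levels below are normalized counts (each count over its library's size factor). Mt3 had 9378 normalized counts in the lowest control mouse, a median of 11698 and 15562 in the highest. In MCU-KO the lowest mouse had 2511, the median was 3069 and the highest mouse had 4288. All 8 MCU-KO mice were therefore below all 8 controls, with a wide gap between the groups. The mean was 11742 ± 1963 in controls and 3215 ± 625.5 in MCU-KO (SD, n = 8 each), a ratio of 0.274. The fitted log2 fold change was −1.87 (SE 0.12, 95% interval −2.13 to −1.61, edgeR), and it was −1.94 without MCU-KO mouse 8. Because each library pools the RiboTag mRNA of many cells, fewer cells of a type and less ribosome-bound mRNA per cell cannot be told apart. Of the 12390 genes tested, 98.8% had a smaller absolute fold change than Mt3, whose fitted value ranked 50th from the lowest.

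**Figure D1:**
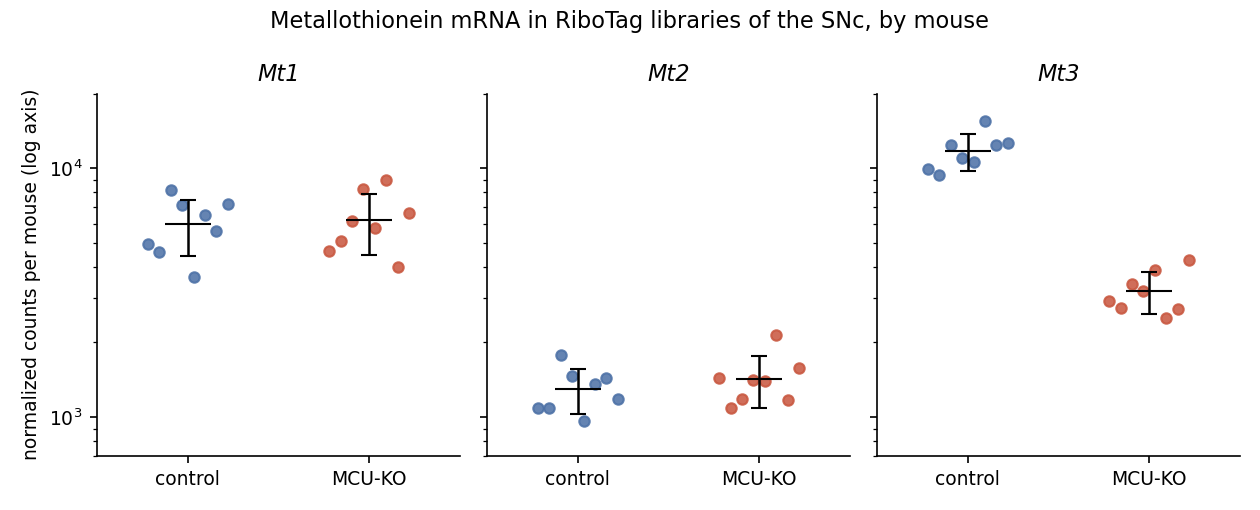
Normalized counts (vertical axis, log scale) of Mt1, Mt2 and Mt3 in each control mouse (blue) and each MCU-KO mouse (red), with points for mice and black bars for mean ± SD (n = 8 mice per genotype). The 8 MCU-KO mice lie between 2511 and 4288 for Mt3, below the lowest control at 9378, while the genotypes overlap for Mt1 and Mt2.

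Mt1, the metallothionein with the next highest level in controls, ranged from 3650 to 8157 normalized counts in controls, with a median of 6036. In MCU-KO it ranged from 4010 to 8962, with a median of 5955. The ranges of the genotypes overlapped almost completely. The mean was 5974 ± 1520 in controls and 6193 ± 1718 in MCU-KO (SD, n = 8 each), with a log2 fold change of 0.05 (SE 0.17, 95% interval −0.30 to 0.40), which bounds the ratio between 0.813-fold and 1.32-fold.

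Mt2, the lowest of the 3, ranged from 960.4 to 1780 normalized counts in controls, with a median of 1275. In MCU-KO it ranged from 1085 to 2135, with a median of 1402. Only MCU-KO mouse 6 exceeded all controls. The mean was 1298 ± 266.7 in controls and 1424 ± 331.3 in MCU-KO (SD, n = 8 each), with a log2 fold change of 0.13 (SE 0.17, 95% interval −0.22 to 0.48). With the mean of the astrocyte markers as a covariate in the fit, the log2 fold change was −0.17 for Mt1, 0.01 for Mt2 and −1.86 for Mt3. Without MCU-KO mouse 6, they were −0.04, 0.03 and −1.82. The Mt1 value was also negative without control mouse 5 (−0.02) or without MCU-KO mouse 4 (−0.02). The sign of the small Mt1 value thus depended on the fit and on single mice.

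Of the 3 members, Mt3 alone was called between the genotypes (edgeR, adjusted p under 0.05), where 0.178% of all genes tested were called, 0.0888% higher and 0.0888% lower in MCU-KO. DESeq2 likewise called Mt3 alone, with 0.557% of its genes called. Mt1 and Mt2 were also not among the 4.41% of genes with an unadjusted p under 0.05. Mt3 was also the only member whose genotypes did not overlap, where this held for 0.258% of all genes tested. Both counts restate the contrast for which the family was chosen.

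The share of each member in the summed counts of the family changed accordingly. Mt3 made up 62.0% ± 4.77 (SD, n = 8) of the counts in controls and 30.3% ± 5.79 (SD, n = 8) in MCU-KO. Mt1 made up 31.2% ± 4.35 and 56.5% ± 5.81 (SD, n = 8 each), and Mt2 6.84% ± 0.830 and 13.2% ± 2.01 (SD, n = 8 each). The highest Mt3 share in MCU-KO was 35.4% and the lowest in controls was 55.6%, so no mouse of either genotype reached the other. The sum over the 3 genes was 19014 ± 3257 normalized counts (SD, n = 8) in controls and 10832 ± 2081 (SD, n = 8) in MCU-KO, a ratio of 0.570. The sum of Mt1 and Mt2 was 7271 ± 1748 and 7617 ± 1975 (SD, n = 8 each), a ratio of 1.05.

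To compare levels between genes, counts were divided by the length of the merged exons in kb (1246 bases for Mt1, 588 for Mt2 and 1066 for Mt3). On this scale controls had 573 ± 97.2 CPM per kb of Mt3, 249 ± 63.3 of Mt1 and 115 ± 23.7 of Mt2 (SD, n = 8 each). MCU-KO had 157 ± 30.0 CPM per kb of Mt3, 258 ± 72.1 of Mt1 and 126 ± 29.1 of Mt2 (SD, n = 8 each). In controls 99.3% of the genes tested had a lower level per kb than Mt3, 98.0% than Mt1 and 95.1% than Mt2. In MCU-KO these shares were 96.6%, 98.1% and 95.7%. The ranks rest in part on the short mRNAs, most of all for Mt2. By CPM without division by length, the shares were 98.2% for Mt3, 95.1% for Mt1 and 72.9% for Mt2 in controls and 89.2%, 95.5% and 75.0% in MCU-KO.

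The order of the 3 levels was then read within each mouse, as the log2 ratio of 2 members per kb. The Mt3 values of both genotypes served to choose the family, so the ratios that involve Mt3 restate its difference and are given as a description with no test. In controls Mt3 lay above Mt1 by 1.23 ± 0.32 on the log2 scale and above Mt2 by 2.33 ± 0.26 (SD, n = 8 each), both in 8 of 8 mice. In MCU-KO Mt3 over Mt1 was −0.70 ± 0.45 (SD, n = 8), with Mt3 the lower in 8 of 8 mice. Mt3 over Mt2 was 0.32 ± 0.42 in MCU-KO (SD, n = 8, 95% interval −0.03 to 0.67), with Mt3 the higher in 7 of 8 mice. The exception was MCU-KO mouse 6, at −0.62, and without it the mean was 0.46.

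Mt1 and Mt2, whose ratio does not involve Mt3, kept their order in both genotypes. Mt1 exceeded Mt2 by 1.10 ± 0.21 on the log2 scale in controls (SD, n = 8), in 8 of 8 mice (exact sign-flip permutation test, two-sided, unadjusted p = 0.0078). No adjusted p is given, because the family of 6 ratios includes those with Mt3. In MCU-KO it exceeded Mt2 by 1.02 ± 0.29 (SD, n = 8) in 8 of 8 mice, with the same exact p, which is the smallest that 8 mice allow.

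These orders depend in part on the length assumed for the mRNA. With the transcript of 3 exons in place of the merged exons, Mt3 over Mt2 in MCU-KO was 1.11 ± 0.42 (SD, n = 8), above 0 in 8 of 8 mice, and Mt3 over Mt1 was −0.89 ± 0.45 (SD, n = 8). With the longest annotated transcript (1085 bases for Mt1), Mt3 and Mt1 were level in MCU-KO, at 0.10. Mt1 over Mt2 with the transcript of 3 exons was 2.08 ± 0.21 in controls and 2.00 ± 0.29 in MCU-KO (SD, n = 8 each). With no division by length it was 2.18 and 2.10. The size of this ratio thus depended on the length assumed, while Mt1 stayed above Mt2 in 8 of 8 mice of each genotype.

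**Figure D2:**
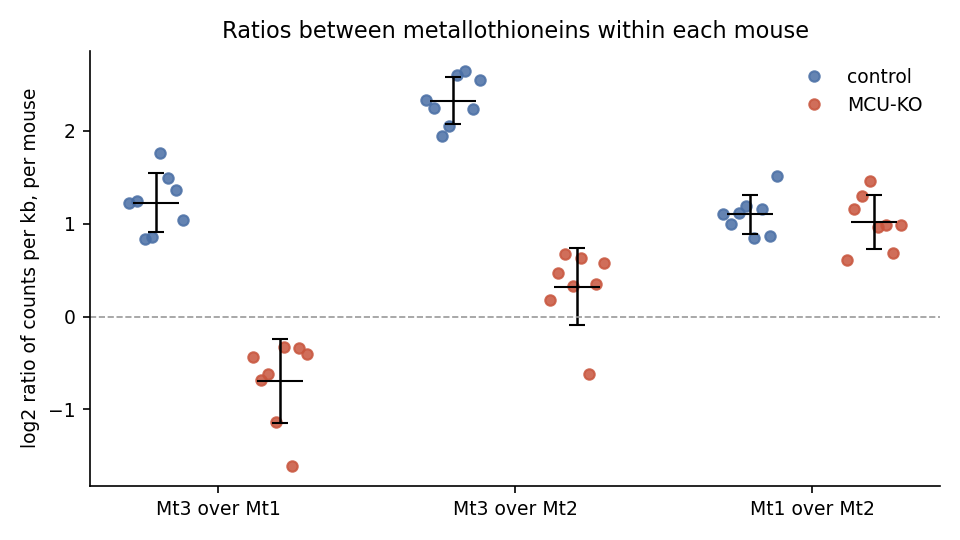
Log2 ratio of counts per kb of merged exons between pairs of metallothioneins within each mouse (vertical axis), with points for mice, black bars for mean ± SD (n = 8 mice per genotype) and a dashed line at equal levels. Mt3 over Mt1 lies above 0 in all 8 controls and below 0 in all 8 MCU-KO mice, whereas Mt1 over Mt2 centers on 1.10 and 1.02.

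Mt1 and Mt2 varied more between mice of a genotype than Mt3 did. The biological coefficient of variation estimated by edgeR was 0.246 for Mt1, 0.251 for Mt2 and 0.183 for Mt3. The highest control had 2.23 times the Mt1 of the lowest, 1.85 times the Mt2 and 1.66 times the Mt3. To see whether the members rose and fell together, their log2 CPM was correlated across the 8 mice of each genotype, and each was compared with the mean log2 CPM of 16 astrocyte markers. This gave 12 correlations, adjusted together.

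Mt1 and Mt2 had the highest correlation among members, with r = 0.84 in controls (n = 8, exact permutation p = 0.0092, adjusted 0.0552; rho = 0.81, exact p = 0.0218, adjusted 0.131). In MCU-KO the value was r = 0.69 (n = 8, exact permutation p = 0.0511, adjusted 0.204; rho = 0.64, exact p = 0.0962, adjusted 0.289). Neither passed after adjustment, and without the 2 mice farthest from the median of Mt1 r fell to 0.60 and 0.32. Leaving out control mouse 8 alone raised the control value to 0.95 (exact permutation test, adjusted p = 0.0214). Mt3 with Mt1 gave r = 0.58 (rho = 0.71) in controls and 0.11 (rho = 0.14) in MCU-KO, with adjusted exact permutation p of 0.315 and 0.870 for r and 0.230 and 0.820 for rho. Mt3 with Mt2 gave r = 0.54 (rho = 0.52) and −0.07 (rho = 0.10), with adjusted exact permutation p of 0.319 and 0.878 for r and 0.393 and 0.840 for rho. In MCU-KO the Mt3 and Mt2 value was 0.68 without mouse 6, and the Mt3 and Mt1 value −0.11 without mouse 7, so single mice set the sign of both.

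Of the 12 correlations, 1 passed, that of Mt1 with the astrocyte markers in MCU-KO, with r = 0.94 (n = 8, exact permutation p = 0.00064, adjusted 0.0077) and rho = 0.95 (exact p = 0.0011, adjusted 0.0137). Without the 2 mice farthest from the median of the markers r was 0.93 (n = 6), with an adjusted exact p of 0.0750. It also missed the threshold without MCU-KO mouse 1 (r = 0.93, adjusted exact permutation p = 0.0548) and without mouse 2 (r = 0.94, 0.0524). In controls Mt1 with the astrocyte markers gave r = 0.46 (rho = 0.43, adjusted exact permutation p = 0.371 for r and 0.449 for rho), and −0.23 without the 2 farthest mice. Whether the correlations differ between the genotypes was not tested. Markers of other cell types were not correlated with the members. MCU-KO mice 4 and 6, highest in Mt1 and in astrocyte markers, were also highest in oligodendrocyte markers (8.03 and 7.80). The same held for microglial markers (4.50 and 4.34, mean log2 CPM). The Mt1 value therefore cannot be read as particular to astrocyte markers.

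Mt2 with the astrocyte markers gave r = 0.52 (rho = 0.48) in controls and 0.61 (rho = 0.60) in MCU-KO, with adjusted exact permutation p of 0.319 and 0.306 for r and 0.417 and 0.318 for rho. Mt3 gave r = −0.31 (rho = −0.31) and 0.22 (rho = 0.26), with adjusted exact permutation p of 0.610 and 0.726 for r and 0.616 and 0.644 for rho. Without the 2 mice farthest from the median of the markers, the Mt3 value became −0.77 in controls and 0.98 in MCU-KO (n = 6 each). The MCU-KO value then had an unadjusted exact permutation p of 0.0042 and an adjusted p of 0.05, at the threshold, in the setting in which Mt1 no longer passed. The Mt2 value became −0.42 and 0.61.

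**Figure D3:**
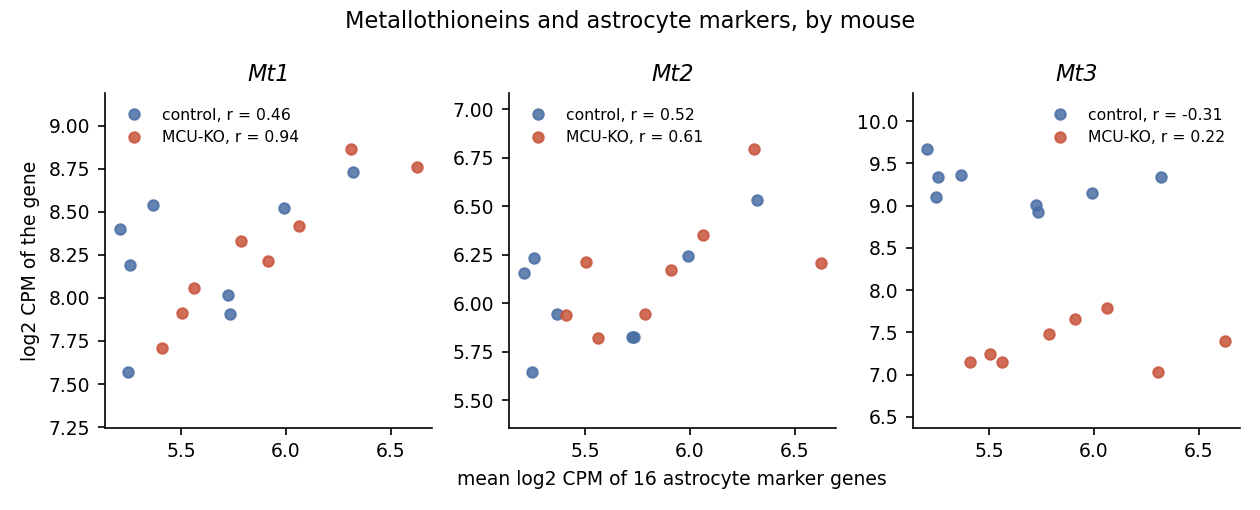
Log2 CPM of Mt1, Mt2 and Mt3 (vertical axes) against the mean log2 CPM of 16 astrocyte marker genes (horizontal axis), with 1 point per mouse, control in blue and MCU-KO in red, and Pearson's r within each genotype (n = 8). Mt1 rises with the markers in MCU-KO (r = 0.94), and the 2 clouds of Mt3 lie apart. The marker means overlap between the genotypes, at 5.21 to 6.32 in controls and 5.41 to 6.62 in MCU-KO.

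The astrocyte marker mean itself was 5.60 ± 0.41 (SD, n = 8, 5.21 to 6.32) in controls and 5.90 ± 0.42 (SD, n = 8, 5.41 to 6.62) in MCU-KO, on the log2 CPM scale. Of the 16 astrocyte markers tested, 0 passed the threshold (edgeR's quasi-likelihood test), with 12 higher, 4 lower and a median log2 fold change of 0.09. Over all genes tested the median was 0.00 and 0.178% passed, so 0 calls does not set so short a list apart. The gene of the list with the smallest p was Slc1a2, the main glutamate transporter of astrocytes (log2 fold change 0.31, unadjusted p = 0.0457, adjusted p = 1.00 with edgeR), and it was the one marker of the list with an unadjusted p under 0.05. Markers of the other cell types also had 0 calls, with medians of 0.11 for 10 oligodendrocyte genes, 0.45 for 10 microglial genes, −0.08 for 7 endothelial and mural genes, 0.11 for 4 GABAergic genes and −0.07 for 12 dopaminergic genes. C1qc, a complement component of microglia, was the one of these with an unadjusted p under 0.05 (log2 fold change 1.15, adjusted p = 0.849 with edgeR). DESeq2 and limma-voom also called 0 genes of every one of these marker lists. The part of glial mRNA in the levels of Mt1 and Mt2 was not tested beyond these values.

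Genes that move zinc, the main metal of metallothioneins, had 0 calls between the genotypes, where 0.178% of all genes tested were called. At that share, 0 calls in so short a list does not set its genes apart from other genes. The same holds for each list below. Of 8 genes tested of the zinc exporter (ZnT) family, most of whose members carry zinc out of the cytosol, 0 passed (edgeR's quasi-likelihood test), 4 were higher and 4 lower, with a median log2 fold change of 0.01. Slc30a1, the exporter of the plasma membrane that MTF1 induces together with Mt1 and Mt2, had 274 ± 244 normalized counts (SD, n = 8) in controls and 323 ± 173 (SD, n = 8) in MCU-KO (log2 fold change 0.24, 95% interval −0.79 to 1.26). Slc30a3, the transporter that loads zinc into synaptic vesicles, had 78.0 ± 108 and 73.8 ± 115 (SD, n = 8 each) and was at 0 in 2 mice of each genotype. Slc30a4 had the smallest p of the list (log2 fold change 0.75, 95% interval −0.09 to 1.59).

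Of 11 zinc importers tested, 0 passed (0.178% over all genes tested), 5 were higher and 6 lower, with a median of −0.04. Slc39a7, which releases zinc from the endoplasmic reticulum, had the smallest p of this list, with 5554 ± 506 normalized counts in controls and 4882 ± 796 in MCU-KO (SD, n = 8 each, log2 fold change −0.19, 95% interval −0.40 to 0.03).

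The list named metal-responsive transcription held Mtf1, Mtf2, Sp1, Nr3c1, Usf1 and Usf2. It gave 0 calls among 6 tested, with a median of −0.22. The 4 lower were Mtf2, Nr3c1, Usf1 and Usf2 and did not include Mtf1. The median of this mixed list therefore does not describe the response to metals. Mtf1, the gene of the zinc sensor, had 299 ± 182 normalized counts in controls and 321 ± 103 in MCU-KO (SD, n = 8 each, log2 fold change 0.10, 95% interval −0.75 to 0.95). Usf2 had the smallest p of the list (log2 fold change −0.29, 95% interval −0.87 to 0.28). Of 10 copper handling genes tested, 0 passed, with 7 higher and a median of 0.24. Atox1, the copper chaperone of the secretory pathway, had the smallest p of these (log2 fold change −0.18, 95% interval −0.40 to 0.03).

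Among 12 glucocorticoid-induced genes tested 0 passed (0.178% over all genes tested), with 5 higher, 7 lower and a median of −0.04. Zbtb16, a zinc finger transcription factor, was the single gene of the 5 lists with an unadjusted p under 0.05, at 35.4 ± 36.2 normalized counts in controls and 202 ± 131 in MCU-KO (SD, n = 8 each, adjusted p = 1.00 with edgeR's quasi-likelihood test). It was at 0 in 3 controls. DESeq2 and limma-voom also called 0 genes in each of the 5 lists. Many of these genes had few counts, and the intervals above show how large a change could have gone undetected.

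**Figure D4:**
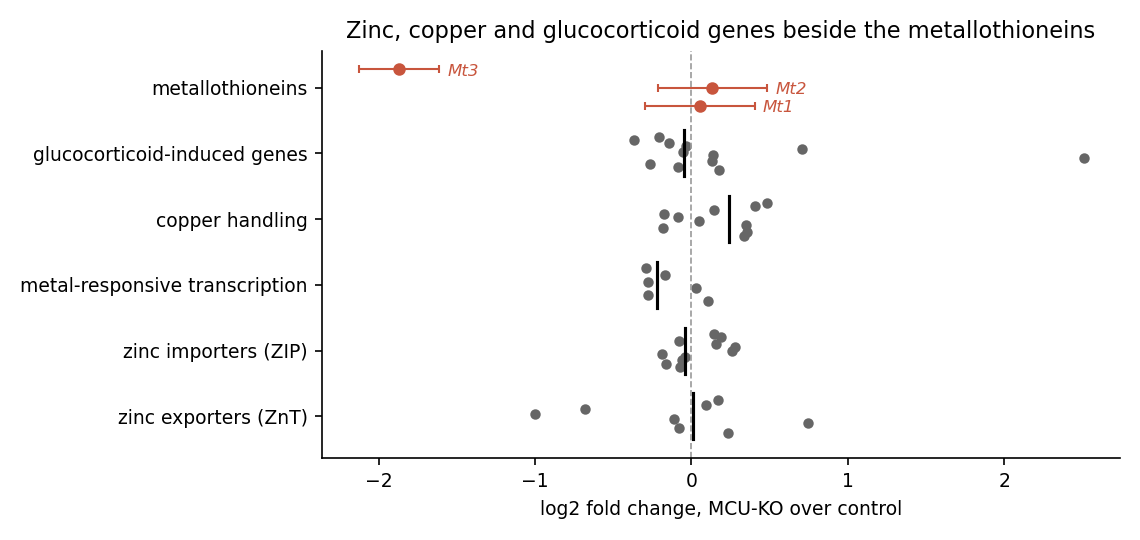
Fitted log2 fold change, MCU-KO over control (horizontal axis), of each tested gene in 5 lists (gray points, spread vertically for legibility, black line at the list median) and of the 3 metallothioneins with 95% intervals (red). The list medians lie between −0.22 and 0.24, and Mt3 lies at −1.87.

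The chromosomal neighborhood of Mt3 held few tested genes, and none of them besides Mt3 was called. Within 500 kb of Mt3, 32 genes are annotated, 17 are listed in the counts and 12 were tested, of which 9 are not metallothioneins. Of these 9, 0 passed the threshold (edgeR's quasi-likelihood test), 0 had an unadjusted p under 0.05, and DESeq2 and limma-voom also called 0. Over all genes tested 0.178% passed and 4.41% had an unadjusted p under 0.05, and DESeq2 called 0.557% of its genes. At these shares, 0 of 9 does not set the neighborhood apart. The log2 fold changes of the 9 genes ran from −0.23 to 0.53, with 6 higher, 3 lower and a median of 0.25. The tested genes next to the cluster were Ogfod1 (0.27, 95% interval −0.16 to 0.69) and Bbs2 (0.53, 95% interval −0.72 to 1.77) before it and Nup93 (0.25, 95% interval −1.48 to 1.98) and Herpud1 (−0.03, 95% interval −0.41 to 0.36) after it. Mt2 begins 20.1 kb and Mt1 26.5 kb after the start of Mt3.

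**Figure D5:**
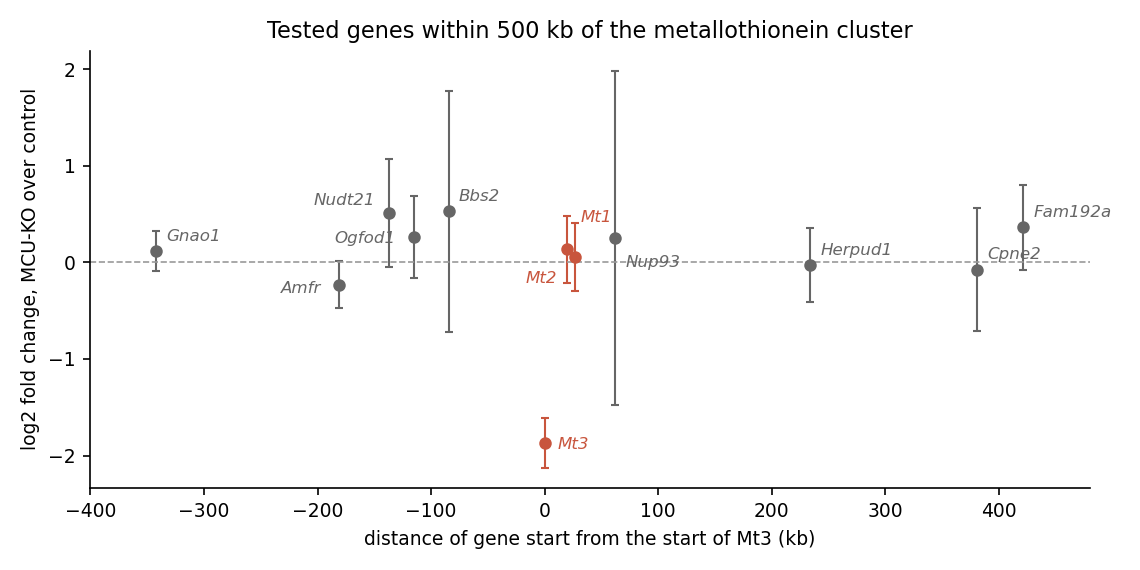
Fitted log2 fold change, MCU-KO over control, with 95% interval (vertical axis) of the 12 tested genes within 500 kb of Mt3, against the distance of the gene start from the start of Mt3 in kb (horizontal axis), metallothioneins in red. Mt3 lies at −1.87, and the other 11 genes lie between −0.23 and 0.53.

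Chromosome 8 as a whole held more of the calls than of the genes tested, an observation made after the values were seen. Of the 22 genes called, 7 (31.8%) lie on chromosome 8, which holds 5.46% of the genes tested. The 7 include Mt3 itself, whose difference chose the family and thereby the chromosome, so this choice raises the share. The nearest to Mt3 begins 9.32 Mb before it, and with Mt3 the 7 genes span 23.7 Mb, 5 of them lower and 2 higher in MCU-KO. Mt3 is the last of them in position. For these genes, too, genotype and breeding line cannot be told apart.

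The genes most like each member were those with the highest Pearson correlation of log2 CPM, as deviations from the genotype mean over the 16 mice, among 7895 other genes with at least 50 counts in every mouse. For Mt1 these were Bcan (r = 0.88), which encodes the proteoglycan brevican, followed by Foxp1, Atp2b4, Rp9 and Sparc (0.77). Mt2 ranked 6th for Mt1 at 0.77, and Mt3 ranked 963rd at 0.33. For Mt2 they were Ftl1 (0.82), which encodes a ferritin light chain, Spata24, Shank2, Ptbp3 and Lhx1os (0.76), with Mt1 ranked 5th.

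For Mt3 the genes most alike were Tmsb10 (0.92), a thymosin that binds actin monomers, Lamtor4 (0.92), Selenom (0.91), Ndufa3 (0.90) and Tomm6 (0.90). Mt1 ranked 1251st and Mt2 2031st for Mt3 among the same genes. The merged exons of these 5 genes measured 1022 to 1481 bases, and 6.48% of the genes compared were no longer than the longest of them, against a median of 4557 bases. For Mt1 the 5 genes measured 3570 to 13751 bases and for Mt2 698 to 10768. The part of gene length in the likeness to Mt3 was not tested. The 5 genes had log2 fold changes between −0.27 and −0.02 between the genotypes, beside −1.87 for Mt3, and none of them passed. These correlations are a description over libraries that share their preparation, and no p is attached to them. Each list of 5 holds the highest of 7895 values over 16 mice, and picking the highest raises r. How high r would reach for unrelated genes was not tested.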

How the data were processed

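RNA-seq counts of RiboTag mRNA from SNc tissue of 8 control and 8 MCU-KO mice were analyzed, 1 library per mouse, with genotypes taken from the labels. For its RNA-seq the study gives more MCU-KO mice than these 8. The authors trimmed the reads, aligned them with STAR to mm10 and summed them over genes with htseq-count; the values they deposited are whole-number counts without normalization. The sources used here do not give tool versions, the Ensembl release or whether strand was used. Coordinates and exons came from GENCODE M21 on GRCm38 and promoters from RefSeq on GRCm38.p6.

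Genotypes were compared with the quasi-likelihood test of edgeR 4.0.16 in R 4.3.3 (filterByExpr, TMM normalization, Benjamini-Hochberg adjustment over 12390 genes, threshold 0.05), as designed for whole-number counts. Normalized counts used the size factors of DESeq2 1.42.0. The study's methods used DESeq2, which was run as an alternative beside limma 3.58.1. CPM are counts scaled to the TMM-adjusted library size, and log2 CPM had a prior count of 2. Ratios used a pseudocount of 1 and all 256 sign patterns (unadjusted p given for Mt1 over Mt2 only), and correlations all 40320 pairings, in Python 3.11.15. The edgeR step was tested on simulated data.

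The members and the gene lists were chosen with earlier results of these data known. The genes named were the members, any list gene past the threshold or else the one with the smallest p, Mtf1, Slc30a1, Slc30a3, Mt4 and Mcu, the tested genes next to the cluster, and the 5 genes most like each member. Th, Slc6a3 and the count of called genes on chromosome 8 fall outside this rule and were chosen after their values were seen. The list named metal-responsive transcription is given in full to show what it holds.

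Library totals of 14129527 to 22016362 counts put 3 counts at 0.136 to 0.212 CPM, which covers counting error only, because reads that carry no molecular identifier cannot be taken as separate molecules. Any 2 libraries of a genotype differed by far more than sampling noise, with a chi-square per degree of freedom of at least 82.2. Mice numbered 1 to 8 in both genotypes are different animals. The correlation of their deviations from the genotype means lay between −0.06 and 0.03, so the numbers do not pair the mice.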

Additional observations from a re-analysis of the deposited data

Results flagged for a closer look

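Of 16 groups of 8 mice examined for a single mouse far from the others, 3 held one, where chance gives 0.8. The groups share values, so the 3 flags are not independent. The Mt2 count of MCU-KO mouse 6 enters both of the flags that follow for this mouse. MCU-KO mouse 6 had 2135 normalized counts of Mt2, and the other 7 MCU-KO mice lay between 1085 and 1582. The same mouse had a log2 ratio of Mt3 over Mt2 per kb of −0.62, and the others lay between 0.17 and 0.68. It also had the highest Mt1 and the lowest Mt3 of its genotype. Its dopaminergic marker mean, 9.07 log2 CPM, was the lowest of all 16 mice, its summed GABAergic (333 CPM) and microglial (343 CPM) markers were the highest, and its astrocyte marker mean was 6.31, against genotype means of 5.60 in controls and 5.90 in MCU-KO. The part of these marker levels in its metallothionein values was not tested. MCU-KO mouse 8 had a total of 14129527 counts, and the others lay between 19897268 and 20582204. Its normalized Mt3 count was the highest of its genotype.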

How the results depend on the processing

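The number of genes called was 22 and lay between 18 and 24 when each mouse was left out in turn. It was 90 with DESeq2, of 16171 genes with an adjusted p (0.557%), and 14 with the mouse number as a replicate block. The 22 genes were all among the 90, and the 14 were all among the 22. Since the numbers do not pair the mice, with 0 of 8 same-numbered pairs correlated above 0.1 and 0 mice most like their own number, the block value only describes the fit. Under the block the log2 fold changes were 0.05 for Mt1, 0.13 for Mt2 and −1.87 for Mt3, and all lists kept 0 calls. With each mouse left out in turn they ranged from −0.04 to 0.13 for Mt1, 0.03 to 0.21 for Mt2 and −1.94 to −1.80 for Mt3. Other normalizations, filters and tests left the Mt3 value between −1.89 and −1.86. The 5 pathway lists and 6 marker lists kept 0 calls under each alternative run.

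The log2 ratio of Mt3 over Mt2 in MCU-KO was 0.32 with merged exons, 1.11 with the longest transcript, 1.18 with no division by length and 1.11 with the transcript of 3 exons, an alternative added after seeing the data. It ranged from 0.27 to 0.46 with 1 mouse left out. The log2 ratio of Mt3 over Mt1 in MCU-KO turned from −0.70 to 0.10 with the longest transcript, in which the annotated length of Mt3 is 536 in place of 1066 bases. Without the 2 mice farthest from the median, r turned to −0.23 for Mt1 and −0.42 for Mt2 with the astrocyte markers in controls and to 0.57 for Mt3 with Mt2 in MCU-KO. With 1 mouse left out, the MCU-KO value ranged from −0.29 to 0.68 for Mt3 with Mt2 and from −0.11 to 0.58 for Mt3 with Mt1. For Mt3 with the astrocyte markers in MCU-KO it rose from 0.22 to 0.98 without the 2 farthest mice. The cause was not tested.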
